A study of Mus musculus with 16 samples.

Results

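Ago2 regions outside annotated genes are the stretches of Argonaute-bound RNA that mapped to no gene of the study's own gene table. They were taken as the regions of the deposited dCLIP summary that overlapped no gene span on either strand, on placed chromosomes and past the assembly gap that opens each of them. The rule kept 90735 of 962084 regions, which is 9.43% (95% Wilson interval 9.37 to 9.49%, covering counting error only). These regions held 11.1% of all bases of CLIP tags. A further 842447 regions (87.6%) lay in a gene on their own strand, and 28902 (3.00%) lay only opposite a gene.

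The study asked which RNAs the microRNAs miR-221-3p and miR-222-3p act on in mouse B cells. Splenic B cells of the strain the labels give as C57B6L/J were cultured for 4 days with aCD40 (500 ng/ml), IL4 (25 ng/ml) and IL21 (10 ng/ml), which mimic help from T cells. The KO cells lacked miR-221 and miR-222, and the Flox cells carried the same locus in its floxed, unrecombined form. The Cre driver, the age and the sex of the animals are not given in the sources used here. Each genotype had 4 RNA-seq libraries of total RNA and 4 Ago2 HITS-CLIP libraries, 16 samples in all. In HITS-CLIP, ultraviolet light links Argonaute 2 to the RNA it touches, the protein is pulled down, and the attached RNA fragments are sequenced as tags.

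The CLIP libraries of a genotype were pooled before they were deposited, and the deposited header does not say which of the 2 pooled columns is KO. CLIP values here are therefore summed over both conditions, and no difference between them has a replicate error or a genotype attached to it. The authors' deposited table gives a difference score for each 5-nt bin and sorts bins into state 0 (negative differences, -0.815 to -0.114 over regions), state 1 (-0.288 to 0.271, overlapping both other states) and state 2 (positive differences, 0.125 to 0.797). Depth, taken from the tag columns of the same table, is the number of tags over the highest bin of a region, both conditions together. The RNA-seq libraries held 22947689 to 39616596 reads. B cell markers were abundant, with Cd79a, a signalling chain of the B cell receptor, at a normalized count of 15349 ± 1147 in KO and 13559 ± 1961 in Flox (SD, n = 4). Defining genes of neutrophils (S100a8, S100a9), natural killer cells (Ncr1) and red cells (Hba-a1, Hbb-bs) were at 0 in all 8 libraries, and the summed level of 5 T cell genes came almost wholly from Lck (1753 ± 152 in KO, 1499 ± 93.4 in Flox, SD, n = 4). Myeloid genes summed to 47.0 to 102.9 per library, and the plasma cell genes, Xbp1 and Jchain among them, to 30350 to 43580.

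Argonaute proteins carry small RNAs, mostly microRNAs, which pair through their seed with sites in the 3′ ends of messenger RNAs and lower the output of those messengers. A transcript can run past the end of its annotated gene model when cells use a distal polyadenylation site. Ago2 tags can then fall in what the annotation calls intergenic sequence. Other RNAs made outside protein-coding genes include tRNAs, primary microRNA transcripts and transcribed retrocopies of genes.

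The sequences printed here are from the RefSeq tables of build GRCm38.p6 and show members that lie in annotated microRNA hairpins, in tRNA genes and before gene starts. The deleted microRNAs come first, with the seed (bases 2 to 8) in capitals, which both share.
mmu-miR-221-3p: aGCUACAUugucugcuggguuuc
mmu-miR-222-3p: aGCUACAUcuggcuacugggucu
A region outside the table's genes cannot overlap a hairpin that the table lists, and the table holds 1900 microRNA genes. The count that follows is limited by this rule and does not measure how often Ago2 was on hairpins. Of 1005 RefSeq microRNA hairpins, 3 were overlapped by such a region. Each of these regions lay on the hairpin's strand and covered an annotated mature arm whole. The hairpins are Gm51275 (chr3:116667557-116667617, minus strand, holding mmu-miR-3473h-5p), Gm51269 (chr16:57610786-57610845, plus strand, holding mmu-miR-1970b-5p) and Gm51284 (chr17:80194912-80194968, minus strand, holding mmu-miR-12189-3p), and capitals mark the bases under the region.
Gm51275: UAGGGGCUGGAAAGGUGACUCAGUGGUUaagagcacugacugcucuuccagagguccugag
Gm51269: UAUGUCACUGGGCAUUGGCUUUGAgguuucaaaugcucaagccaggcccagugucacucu
Gm51284: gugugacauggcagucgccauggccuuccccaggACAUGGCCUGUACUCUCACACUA
Depth was 20 tags on Gm51275, 9.0 on Gm51269 and 9.0 on Gm51284.

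The next set shows nuclear tRNA genes, whose regions had the highest median depth of the annotated classes. They are n-TVcac9, a valine tRNA (chr13:23446142-23446214, minus strand), n-TRtcg5, an arginine tRNA upstream of Polg (chr7:79466419-79466491, plus strand), and n-TAagc16, an alanine tRNA (chr13:21222586-21222657, plus strand). Capitals mark bases at 50% or more of the gene's highest depth, and each gene is printed on the strand of its tags.
n-TVcac9: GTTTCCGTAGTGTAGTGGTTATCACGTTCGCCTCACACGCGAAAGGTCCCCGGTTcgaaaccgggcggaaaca
n-TRtcg5: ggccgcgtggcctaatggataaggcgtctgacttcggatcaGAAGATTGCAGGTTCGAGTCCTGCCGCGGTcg
n-TAagc16: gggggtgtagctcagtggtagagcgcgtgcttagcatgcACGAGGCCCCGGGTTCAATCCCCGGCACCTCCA
The letters GGTTC, which in a tRNA open the loop of the T arm, were found on this strand at position 52 of n-TVcac9, 52 of n-TRtcg5 and 51 of n-TAagc16. The same 5 letters occur on either strand in 40.04% of the 32851 promoter windows of 300 nt in the RefSeq table. In the valine tRNA the capitals run from position 1 to 55, and in the arginine and alanine tRNAs from 42 to 71 and from 40 to 72.

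The last set shows single regions before gene starts, again with bases at 50% or more of the highest depth in capitals. They lie in a histidine tRNA gene, n-THgtg7, 189 to 233 nt before BC107364 on the opposite strand (chr3:96452495-96452539, plus strand), and 202 to 231 nt before H2-DMb1, a chaperone of peptide loading on class II molecules, on its own strand (chr17:34152960-34152989, plus strand).
n-THgtg7 region: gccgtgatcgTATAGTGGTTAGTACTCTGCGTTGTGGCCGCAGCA
H2-DMb1 region: TTTTAGAACTATGTGAGCGGAGAAAGTCAA
The n-THgtg7 region had a depth of 541.8 tags and a deposited difference of 0.297, and the H2-DMb1 region a depth of 31.8 and a difference of 0.508. Both were in state 2. Another region in state 2 lay 21 to 70 nt before the start of Pax5, the transcription factor that fixes B cell identity, with a depth of 12 tags and a difference of 0.364. H2-DMb1 and Pax5 were picked after their values were seen.

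Regions outside genes were narrower and, at their highest point, deeper than regions inside genes. Their median width was 35 nt and their median depth 9.0 tags, against 55 nt and 5.4 tags for regions in a same-strand gene. The regions opposite a gene were alike in form to those outside genes, with 35 nt and 9.4 tags. Signal was concentrated: the upper 1% of the 90735 regions (907) held 35.7% of their tag bases, and the upper 10% (9074) held 60.7%. By the authors' deposited table, 43.1% of regions outside genes were in state 0 and 6.69% in state 2, against 31.6% and 9.70% in same-strand genes. Of the regions outside genes, 49.8% (49.4 to 50.1%, counting error only) were thus in either differential state. A region ends where the state changes, and the 90735 regions came from 59925 dCLIP clusters, so they are not independent draws. The median deposited difference was -0.079 outside genes, -0.033 in same-strand genes and -0.105 opposite genes. Which genotype a negative score favours is not given in the sources used here, and with pooled libraries these gaps have no test.

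The sets also differed in state within classes of depth. Among regions of 20 to under 100 tags, 28.8% of those in same-strand genes were in state 2, against 20.3% of those within 10 kb past a same-strand gene end and 9.22% of those farther away. In the same order, the shares in state 0 were 19.8%, 29.9% and 50.2%. At 100 tags and over, the shares in state 2 were 27.0%, 19.0% and 8.42%, and those in state 0 were 19.4%, 29.1% and 35.4%. Below 5 tags the order of state 0 was reversed, at 39.2%, 37.5% and 31.4%, and state 2 made up 0.845%, 0.645% and 0.709%.

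Chromosomes differed in how much of their Ago2 signal lay outside genes. The share of regions outside genes was 5.49% on chromosome 11 and 6.38% on chromosome 2. It was 19.8% on the X chromosome and 76.1% on the Y chromosome, where 57.1% of the 2203 regions outside genes were in state 0. On the mitochondrial chromosome 22 of 23 such regions lay past mt-Tp, the last gene of the table (which ends at position 15422), in the stretch that holds the control region. The plus strand had 14 of them between positions 15425 and 16299 with a highest depth of 200.4 tags, and the minus strand 8 between 15555 and 16229 with a highest depth of 467.6.

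Up to 5 kb, regions on nuclear chromosomes were denser past the 3′ end of a gene on the same strand than at the other 3 kinds of gene edge. They occurred at 317 per Mb of available strand within 1000 nt past such an end, 122 per Mb at 1 to 2 kb, 68.8 at 2 to 5 kb and 41.8 at 5 to 10 kb. Beyond that the density fell slowly, from 33.1 per Mb at 10 to 20 kb to 21.1 per Mb past 100 kb. Tag bases per kb of strand fell in step, from 185 in the first 1000 nt to 65.6 in the next and 9.88 past 100 kb. The excess was directional: the first 1000 nt before a same-strand gene start held 79.6 regions per Mb, and the first 1000 nt past an end or before a start on the opposite strand held 45.2 and 65.3. From 5 kb on, same-strand ends no longer had the highest density of the 4 kinds of edge.

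**Figure D1:**
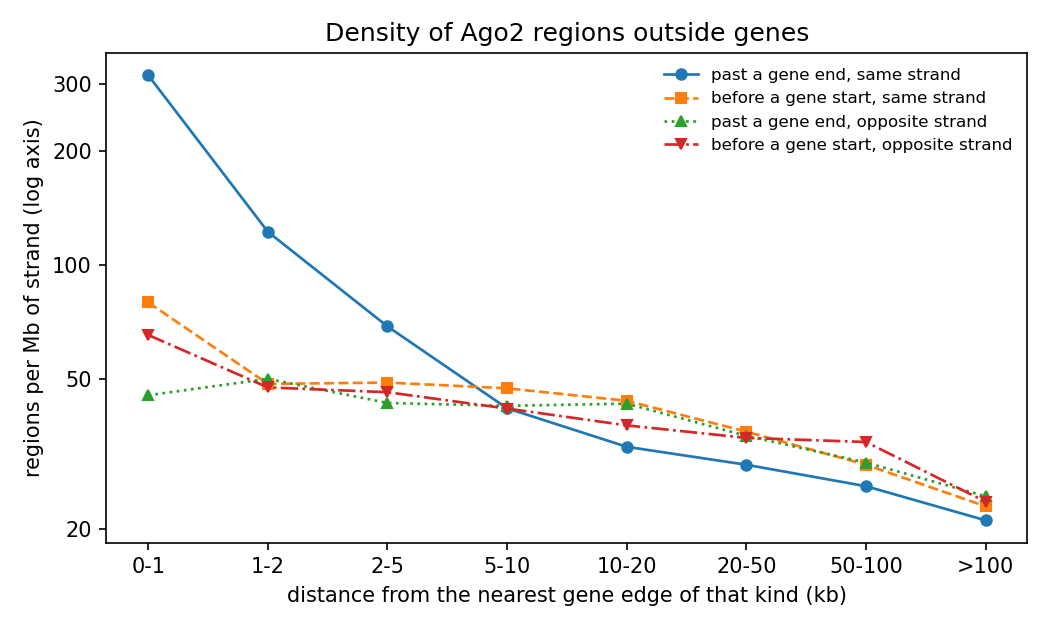
Density of Ago2 regions outside genes (regions per Mb of available strand, log axis) against distance from the nearest gene edge in kb, for the 4 kinds of edge. The line for ends on the same strand starts at 317 per Mb and meets the others, which lie between 45.2 and 79.6 in the first bin, at about 5 kb.

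The deposited state changed with the same distance. State 0 took 33.1% of regions within 1000 nt past a same-strand end, 32.6% at 1 to 2 kb, 36.3% at 2 to 5 kb and 40.1% at 5 to 10 kb. It reached 47.3% past 100 kb. State 2 went the other way, from 10.2% and 10.5% in the first 2 bins to 5.39% in the last. The median deposited difference went from -0.039 to -0.115. Taken over all depths, regions just past gene ends had shares near those of regions inside genes (31.6% in state 0 and 9.70% in state 2). At like depth they differed. Among regions of 20 to under 100 tags, 29.9% of those within 10 kb past an end were in state 0 and 20.3% in state 2. In same-strand genes these shares were 19.8% and 28.8%. The trend with distance was also present without the regions in tRNA and other small RNA genes (33.1% to 47.4% in state 0). It was present as well where the nearest end was that of a coding gene (33.4% to 44.6%). Median depth also differed over these bins, at 7.8 tags in the first, 7.0 in the next 2 and 10.0 in the last, and its part in the trend was not tested.

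**Figure D2:**
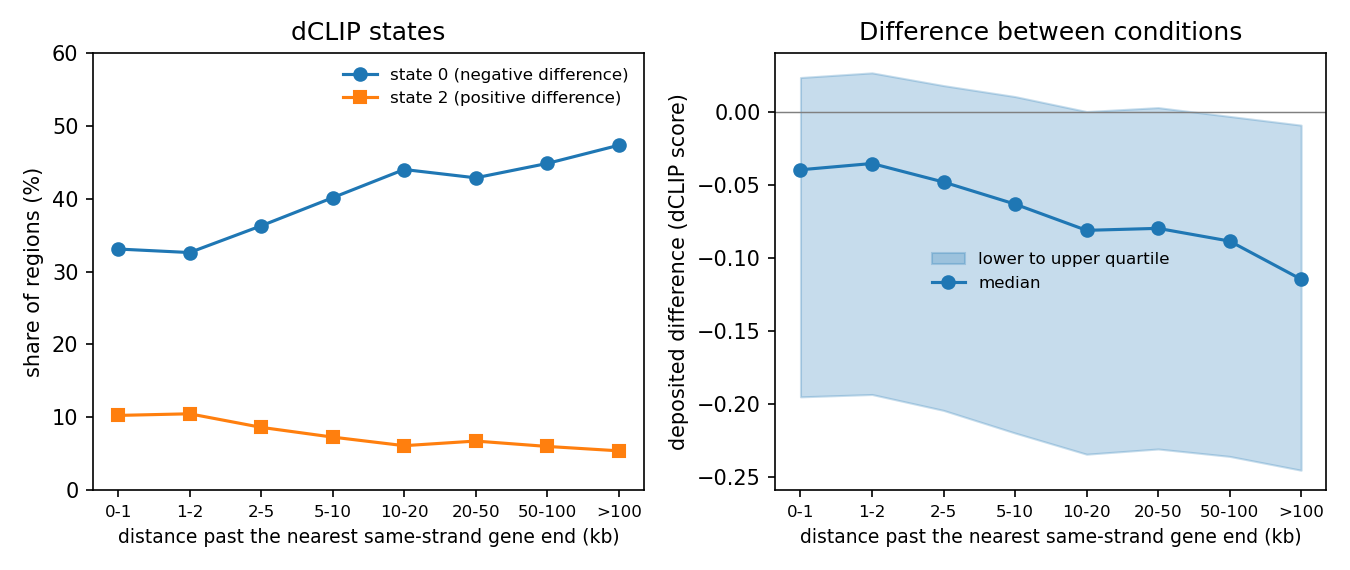
Left, share of regions outside genes (%) in dCLIP state 0 and state 2 by distance past the nearest same-strand gene end in kb. Right, median (points) and quartiles (band) of the deposited difference over the same bins. State 0 rises from 33.1 to 47.3%, state 2 falls from 10.2 to 5.39%, and the median difference moves from -0.039 to -0.115.

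Within 10 kb past a same-strand end lay 22979 regions, 25.3% of those outside genes (25.0 to 25.6%, counting error only), with 27.6% of their tag bases. Coding genes and processed pseudogenes, the intronless copies of messenger RNAs, accounted for most of them. Of the regions in the first 1000 nt, mitochondrial ones included, 4152 (43.9%) followed 1382 coding genes and 4089 (43.2%) followed 1133 processed pseudogenes. Those behind pseudogenes were deeper, with a median of 11.0 tags against 5.2, and lay nearer, at a median of 244 nt against 378 nt. Out to 10 kb, coding genes had 12775 regions behind 3366 genes and processed pseudogenes 5759 behind 1424.

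Some of the signal past coding genes lay in longer gene models of another annotation. Of the 12775 regions, at least 3696 (28.9%) overlapped the span that RefSeq gives to the same gene. So did at least 1618 of the 4152 in the first 1000 nt. Each region was given only 1 RefSeq gene, so regions where RefSeq genes overlap, or where symbols differ, can be missed. These counts, and those of single genes below, are therefore lower limits. For most coding genes the signal past the end was small: 1857 of 3366 had a single region there, and the median gene had 9.26% of its tag bases past its end. In 224 genes with tags inside, more tag bases lay past the end than within the gene. Another 796 had tags only past the end. The 12 coding genes with the most such signal held 24.6% of it.

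Zfp871, a zinc finger gene on chromosome 17 (17:32771236-32788287, minus strand), led this group. It had 82 regions between 47 and 5822 nt past its end, 81 of them in its RefSeq span, with 224894 tag bases against 109934 inside the gene. By kb past the end, the tag bases were 72614, 48800, 32144, 21449, 22594 and 27293, and none lay beyond. The signal was thus highest in the first kb and lowest in the fourth. The authors' deposited table placed 30 of the 82 in state 2 and 11 in state 0. The region there with the most tag bases (chr17:32770640-32770929, 307 nt past the end) had a depth of 336.6 tags and a difference of 0.310.

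Lnpep, which encodes a membrane aminopeptidase, was built alike, but none of its regions was matched to its RefSeq span. Its 92 regions ran from 44 to 6589 nt past the end, with 167630 tag bases against 146971 inside the gene. Of these regions 30 were in state 2 and 16 in state 0, and the 3 with the most tag bases (260 nt at 1664 nt, 180 nt at 3429 nt and 320 nt at 4044 nt past the end) had deposited differences of 0.358, 0.362 and 0.382. In Klhl11, a substrate adaptor of a ubiquitin ligase, all 67 regions lay in the RefSeq span, and 75238 tag bases past the end stood against 13666 inside. In Lcor, a corepressor of nuclear receptors, all 76 regions lay in the RefSeq span as well, with 87359 tag bases past the end and 168865 inside.

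Slc9a7, a sodium-proton exchanger of internal membranes, had 86 regions, at least 71 of them in its RefSeq span. It had 99645 tag bases past its end and 471175 inside. The region there with the most tag bases, 6655 nt past the end and 118.6 tags deep, overlapped the RefSeq span of the neighbouring gene Chst7. Mtdh, which encodes the membrane protein metadherin, had 55 regions, with 50080 tag bases in the first kb and 32680 in the second out of 89225, and 515461 inside the gene. These 6 genes share runs of many regions that begin within 400 nt of the annotated end.

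The other 6 coding genes of the 12 had between 3 and 18 regions each. Tra2a, a splicing regulator, owed its place to 1 region 7260 nt past its end (chr6:49236440-49236664), which was 1645.6 tags deep, in state 0 (difference -0.240) and in no RefSeq gene. Fam71f2 (7100 to 8250 nt), Rimbp3 (8254 to 8594 nt), Cyp2c50 (5755 to 5940 nt) and Dhx37 (4744 to 9584 nt) had no tag inside the gene. Ctc1 and Dhx37 were followed by tRNA genes, which held 12 of 18 and 9 of 14 of their regions. Whether these tags come from a transcript of the nearest gene was not tested.

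Among 8 genes listed for their earlier RNA-seq or target status, 7 had no region outside genes within 10 kb past their end. Most coding genes had none: such regions were found for 2394 of the 11588 coding genes tested in RNA-seq. The 7 listed genes without one were Foxp1, Arid1a, Bcl2l11, Ppp1r16b, Gdpd3, Tspan32 and Tnfrsf26. Regions there that overlap another gene on either strand are not counted. Cdkn1b, a cell cycle inhibitor, had 5 between 482 and 647 nt past its end, at most 6.8 tags deep, with 485 tag bases against 316839 inside the gene.

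The 12 processed pseudogenes with the most signal past their end were ranked after the values were seen. All but Gm11279 had regions that began within 130 nt of the end. Behind Gm11279 lay 8 regions, 2321 to 6601 nt past its end, 7 of them in tRNA genes. Behind Zfp36l1-ps on the X chromosome lay 34 regions, 54 to 1814 nt past its end, up to 623.2 tags deep. They held 96.3% of the tag bases of the pseudogene and its 3′ flank together. RNA-seq gave Zfp36l1-ps normalized counts of 0 to 9.2 over the 8 libraries, while the parent gene Zfp36l1, which encodes a protein that destabilises messengers with AU-rich elements, had 7503 to 12855. Behind Pgam1-ps2 lay 15 regions, 82 to 822 nt past its end and up to 588.4 tags deep, and the pseudogene was listed at 0 in every RNA-seq library. RNA-seq values were not low for all 12: Gm9800, the highest, had 3488 to 8544.8 over the 8 libraries. Gm11847 was followed by 62 regions out to 3944 nt, all in its RefSeq span, and Gm13410 by 44 out to 4503 nt. A retrocopy keeps the 3′ sequence of its parent, so tags could map to either, and these regions are uncertain for that reason. How tags with several matches were placed is not given in the sources used here.

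Among annotated classes the tRNA genes had the highest median depth. Of 408 nuclear tRNA genes in RefSeq, 339 lay outside the table's genes, and 298 of these held regions, in no case on both strands. The strand of the tags was not compared with that of the tRNA gene. The 539 regions in them made up 0.594% of regions outside genes and 6.48% of their tag bases, and had a median depth of 115.8 tags against 9.0 for all regions outside genes. Their deposited states were 23.0% in state 0 and 16.0% in state 2. Per gene, the highest depth had a median of 188.8 tags and ran from 4.0 to 902. The highest was n-TEctc9, a glutamate tRNA on chromosome 10, and the lowest n-TVcac2, a valine tRNA. Copies of 1 tRNA share their sequence and are not independent, and how tags were divided among them was not tested.

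Tags were not spread evenly along the tRNA. With each gene cut into 3 segments of equal length on the strand of its tags, the 5′ segment held a median of 16.7% of tag bases, the middle 40.8% and the 3′ segment 40.6%. The 5′ segment was the richest in 17 genes, the middle in 137 and the 3′ segment in 144. Maximum depth fell at a median position of 46 in genes with a median length of 73 nt. Flanks held little, with a median of 0.597% of the tag bases in the 40 nt upstream and 3.20% in the 40 nt downstream. Arginine tRNAs (median 6.08% in the 5′ segment, 64.2% in the 3′ segment) and valine tRNAs (38.7% in the 5′ segment, the highest of all amino acids) differed from each other in this respect, as in the printed sequences of n-TRtcg5 and n-TVcac9. Arginine was not alone: the 3′ segment also held medians of 71.1% in tyrosine and 61.6% in alanine tRNAs.

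**Figure D3:**
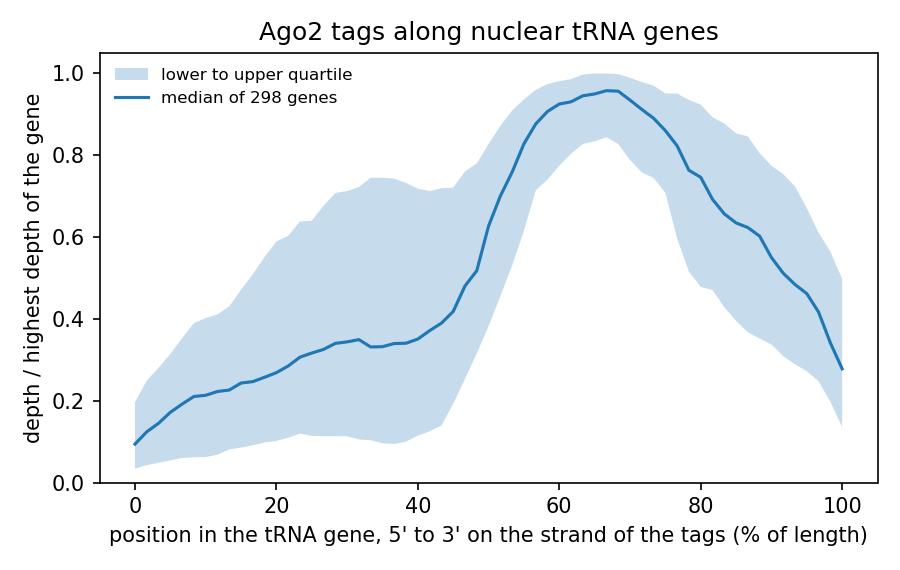
Depth of Ago2 tags along 298 nuclear tRNA genes, each scaled to its own highest depth and length; the line is the median and the band the quartiles over genes. The median rises from 0.094 at the 5′ end to 0.958 at 66.7% of the length and ends at 0.278.

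The difference of a tRNA gene was taken as the mean of the deposited scores of its bins, weighted by their tags. These differences had 1 sign for some amino acids and both signs for most. All 14 aspartate tRNA genes with tags had negative differences, with a median of -0.205 and a range of -0.288 to -0.122. The same held for all 13 glutamate genes (median -0.145) and all 14 threonine genes (median -0.141). All 15 valine genes were positive, with a median of 0.073, and so were 8 of 9 histidine genes, with a median of 0.138. Every amino acid other than aspartate, glutamate, threonine and valine had genes of both signs. Negative differences were found in 7 of 13 methionine, 10 of 26 cysteine, 5 of 14 proline and 14 of 21 alanine genes. Anticodons of 1 amino acid also differed, with medians of 0.206 for leucine CAG and -0.098 for leucine UAA, and of 0.170 for proline UGG and -0.086 for proline AGG. These are descriptions, with no test. Aspartate, glutamate and glycine tRNAs held the most tags, at 13.7%, 12.2% and 12.2% of all tRNA tag bases. Cysteine had the most genes with tags, 26, but a median depth of only 8.4 tags.

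**Figure D4:**
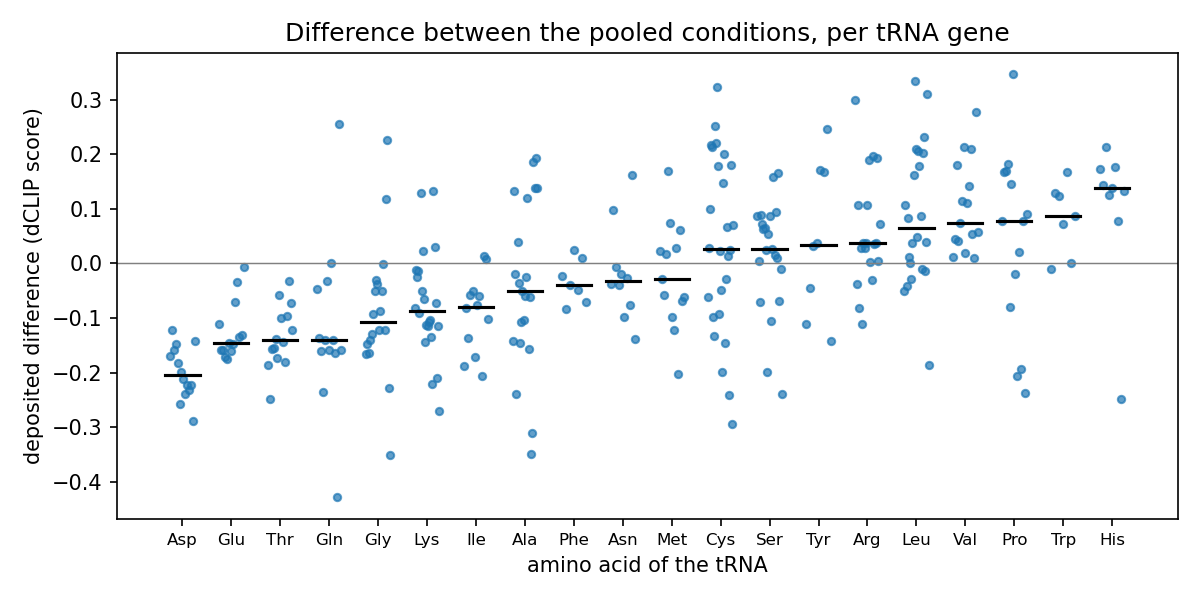
Deposited dCLIP difference of each tRNA gene (points, mean over its bins weighted by tags), by amino acid, with the median of each amino acid (bars). Aspartate, glutamate and threonine genes all lie below 0, and valine genes all lie above 0. Gene copies can have the same sequence, so points are not independent.

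The 50 deepest regions mostly carried no annotation, as did regions outside genes in general. Of these 50 (1107.2 to 1892.8 tags), 41 lay in no RefSeq gene and 9 in long noncoding RNA genes, none in a tRNA gene. Over all regions outside genes, 69.7% lay in no RefSeq gene, 8.49% in long noncoding RNA genes and 0.594% in tRNA genes. The authors' deposited states put 47 of these 50 in state 0 and none in state 2, with a median difference of -0.240. Among the 1000 deepest, 244 were in tRNA genes and 35.9% were in state 0. In no RefSeq gene lay 493 of them, a smaller share than over all regions outside genes. The deepest region of all, chr6:3201335-3201669 on the plus strand, reached 1892.8 tags, and its neighbour chr6:3200770-3201289 held the most tag bases (675524). Both lie near the first assembled bases of the chromosome. On chromosome 3 the pair chr3:5860345-5860564 and chr3:5860615-5860839 reached 1640.8 and 1656.4 tags, 109 kb past the nearest same-strand gene. On chromosome 11, chr11:109011805-109012014 reached 1709.0 tags within the span of the long noncoding RNA gene Gm36876. RefSeq genes were matched by position with strand not compared, so regions given as in a RefSeq gene may lie antisense to it. In all 10 regions with the most tag bases away from gene ends the deposited state was 0, with differences from -0.275 to -0.184.

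Among the 5% of regions with the most tag bases (4537), the widest differences were found in much shallower ones. The most negative was chr10:25832970-25833024 at -0.654 (51.0 tags, in the RefSeq span of the pseudogene Gm19801), followed by a region in the RefSeq span of Samd5 at -0.599. The most positive was chr11:88895765-88895814 at 0.729 (34.0 tags, in no RefSeq gene). One positive region was deep: chr1:24612735-24612769, which begins 6 nt past the unprocessed pseudogene Gm28438, had 532.0 tags and a difference of 0.562.

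Regions wholly inside a RefSeq promoter window (250 nt before to 50 nt after a start) numbered 498, at 373 genes, 257 on the strand of the gene. Beside tRNAs, the deepest included starts of replication-dependent histone genes: H3c11 (247.0 tags), H2ac4 (195.6), H2bc13 (159.8), H3c6 (127.6) and H2ac20 (65.2), all on the strand of the gene and within 44 nt of the start site. These were named after the values were seen. On these 498 the sequence could be read, on the strand of the tags. The 7 letters ATGTAGC, which pair with the miR-221/222 seed, were in none, and the 6 letters TGTAGC in 2 (0.402%). Stretches of the same lengths cut from the 5′ end of all promoter windows held TGTAGC in 0.685% and ATGTAGC in 0.137%. On either strand, 10.3% of whole windows hold TGTAGC and 2.11% hold ATGTAGC.

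Runs of A were common in the same 498 regions. A run of 8 A was present in 46 (9.24%), against 0.691% of stretches of the same lengths, while a run of 8 T was present in 3 (0.602%, against 0.597%). Either run occurs in 7.87% of whole windows on either strand. Of the 46 regions with the A run, 31 (67.4%) were in state 0 and none in state 2 by the authors' deposited table. State 2 was rare in all 498, at 3.89% on the strand of the gene and 5.39% on the other strand. Of the regions without the A run 38.5% were in state 0. Median differences were -0.196 with the run and -0.064 without it, at median depths of 9.0 and 7.9 tags. This comparison was made after the sequences were seen, and the source of the A-rich tags was not tested.

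Near microRNA genes, 230 regions lay within 1 kb past the 3′ end and 172 within 1 kb before the 5′ end of 100 of the 1900 microRNA genes in the table. The deepest followed Gm24187 on chromosome 13 (chr13:9834265-9834364, 1785.2 tags, difference -0.287). Mir21a, the gene of the abundant miR-21, was followed by 12 regions from 213 to 963 nt past its hairpin, with depths from 2.0 to 53.0 tags. Mir17, the first hairpin of a cluster active in dividing lymphocytes, was preceded by 2 regions at 882 and 942 nt, 8.0 and 25.4 tags deep. Mir146, the gene of miR-146a, was preceded by 1 region at 94 nt, 7.8 tags deep. Mir155, Mir150, Mir181a-1 and Mir181b-1 had none, where regions that overlap any gene of the table are not counted.

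At the deleted locus on the X chromosome, 4 shallow regions lay on the minus strand, that of the microRNA genes. One began 850 nt past Mir221 (chrX:19145345-19145444), 4.4 tags deep with a difference of -0.280, and another 13240 nt past it, 2.2 tags deep. Between Gm14636 and Mir222, 6522 and 6597 nt past Gm14636, lay 2 adjoining regions of 5.0 and 1.6 tags.

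In RNA-seq, 9 of 13091 genes tested passed an adjusted p of 0.05 between KO and Flox (limma with Benjamini-Hochberg adjustment, 0.0687% of genes). Of the 6127 genes with a region past their end 2706 were tested, and 3 passed: Gm14636, Gm9855 and Mid1, each higher in KO. At an unadjusted p under 0.05 the counts were 506 of 2706 (18.7%, 281 higher and 225 lower in KO), against 15.1% of all genes tested. For coding genes with such regions they were 426 of 2394 (17.8%, 253 higher and 173 lower). Coding genes with such regions were more abundant than the other coding genes tested (median normalized count 1701 against 900). The shares were not matched for level, and what part level had in them was not tested. The median log2 difference was 0.01 for genes with regions past their end and -0.01 for all genes, on the log2(value + 1) scale used throughout. The count over all genes was 17 without KO 2 and 14 without KO 4, and DESeq2 on the recovered reads passed 199 genes, 48 of them with such regions. Nothing in the labels says whether the 4 samples of a group came from separate animals, so the p-values reflect only how much these samples varied, which may be technical.

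Gm14636, a processed transcript upstream of the microRNA pair, had normalized counts of 304.4, 286.9, 275.2 and 188.0 in KO 1 to 4 and of 0.8, 1.7, 1.2 and 3.1 in Flox 1 to 4. The groups stood far apart. The ratio of means was 155 (75.3 to 386 by an exact Poisson interval on the 7 Flox reads), and the adjusted p in limma was 2.29e-06. Gm9855 had 123.7, 166.9, 225.5 and 109.1 in KO and was at 0 in every Flox library. It was at least 54.6-fold higher in KO against a floor of 3 reads per library, with an adjusted p of 2.43e-06 in limma. Its flank, which RefSeq gives as the pseudogene Tdg-ps2, held 17 regions, 89 to 1514 nt past its end, 2.0 to 13.4 tags deep, 6 in state 0 and 2 in state 2. As a copy of Tdg, which encodes a DNA glycosylase, it may share reads with its parent.

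Mid1, which encodes a ubiquitin ligase bound to microtubules, had 18, 33.9, 40.5 and 25.0 in KO and 3.8, 3.5, 3.5 and 4.1 in Flox. It rose by 2.62 (SE 0.38) on the log2 scale, with an adjusted p of 0.0376 in limma. That call was made in 4 of 14 other fits, where its adjusted p ran from 7.87e-05 to 0.168, and in 1 of the 8 fits that left out a library. Gm14636 and Gm9855 were called in all 15. Past the end of Mid1 lay 3 regions between 3529 and 3849 nt, 4.0 to 11.6 tags deep.

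None of the 12 coding genes with the most signal past their end passed the adjusted threshold, and 10 of them were tested. Zfp871 was at 1556.9, 1253.2, 1518.1 and 1344.5 in KO and at 1166.8, 1181.4, 722.5 and 699.4 in Flox. All KO libraries lay above all Flox libraries, the log2 difference was 0.63 (SE 0.18), and the adjusted p in limma was 0.239. Lnpep was at 2490.2, 2003.1, 2333.2 and 2294.9 in KO and at 1998.5, 1889.9, 1470.5 and 1232.5 in Flox, again without overlap, with a log2 difference of 0.49 (SE 0.15) and an adjusted p in limma of 0.240. Slc9a7 was the third without overlap, at a log2 difference of 0.27 (SE 0.08). Groups without overlap were found for 7.97% of all genes tested. Lcor (0.43), Klhl11 (0.40), Mtdh (-0.03) and Tra2a (-0.17) had overlapping groups. A change in the RNA past the annotated end is not in these values, which count reads in the table's genes.

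**Figure D5:**
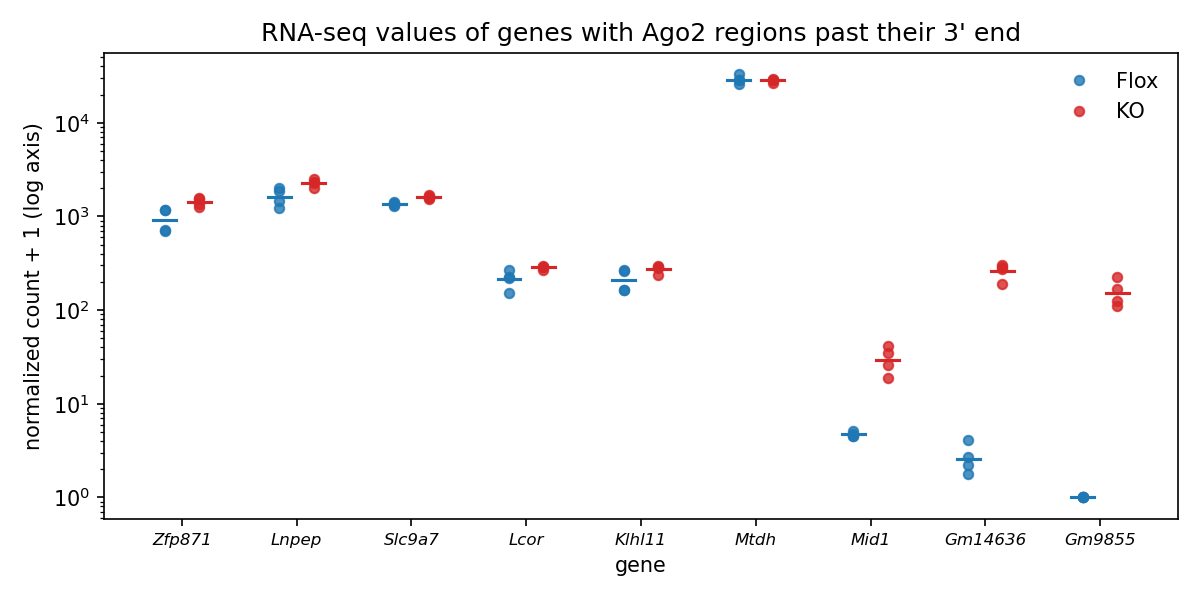
Normalized RNA-seq count + 1 (log axis) of 9 genes with Ago2 regions past their 3′ end, in the 4 Flox and 4 KO libraries (points), with geometric means (bars). Groups lie apart for Zfp871, Lnpep, Slc9a7, Mid1, Gm14636 and Gm9855 and overlap for Lcor, Klhl11 and Mtdh.

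Coding genes with regions past their end were also among the more abundant ones. Their median normalized count was 1701, against 900 for the other coding genes tested. By level, 13.8% of the lowest 20% of coding genes had such a region and 32.4% of the highest 20%. Level was not part of how the regions were chosen, and deeper coverage of abundant transcripts was not separated from other differences.

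The 27 genes listed for 3′ end formation, many of which act in cutting and polyadenylating transcripts, were all tested. None passed the adjusted threshold in limma or DESeq2, and 10 of 27 had an unadjusted p under 0.05, 8 higher and 2 lower in KO, where 15.1% of all genes tested did (1013 higher and 968 lower). The median log2 difference was 0.09, against -0.01 over all genes. Nudt21, the CFIm subunit that favours distal sites, was at 153.3, 194.3, 203.5 and 199.3 in KO and at 235.9, 233.8, 269.8 and 220.1 in Flox. The groups did not overlap, and its log2 difference was -0.36 (SE 0.14, adjusted p 0.292 in limma). Cpsf7, its partner in CFIm, was at 4231 ± 369 in KO and 3538 ± 271 in Flox (SD, n = 4, log2 difference 0.26, SE 0.09, adjusted p 0.259 in limma). Scaf4, which restrains early polyadenylation, had the highest value of the list at 0.45 (SE 0.15), and Clp1, a subunit of the cleavage machinery, the lowest at -0.37 (SE 0.17).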

How the data were processed

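Per the submitters' processing notes, the files were made with cutadapt, Bowtie2, SAMtools, STAR, DESeq2 and DESeq, with build mm9. Versions and roles are not given in the sources used here. The gene table's coordinates instead follow GRCm38: 99.85% of 20494 coding symbols shared with RefSeq GRCm38.p6 overlapped their RefSeq span. The deposited RNA-seq values are normalized counts, a signal in which each library's gene counts were scaled by a size factor of its own. At least 99.941% of values in each library were whole reads within 0.1 read. The deposited dCLIP tag columns, first taken here for counts, hold bases of tags per 5-nt bin (56.4% of nonzero values are multiples of 5), so depth was taken as the highest bin divided by 5. Differences are the authors' deposited scores, averaged over the bins of a region, and states are as deposited. For a tRNA gene the scores were averaged over the bins of the gene, each weighted by its tags. The libraries of a condition were pooled and the columns carry no genotype, so both were summed. Left out were 247 regions on unplaced sequence, 369 below position 3000000, which lies in the assembly gap, and 2 columns of mutations. One of the B cell markers is not reported here.

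Distances ran from the nearest same-strand gene end, and density was divided by the intergenic strand at that distance. RefSeq genes were matched to regions by position, with strand not compared. A region that met several RefSeq genes was given 1 of them, with tRNA and other small RNA genes first. RNA-seq was tested with limma 3.58.1 (trend) on log2(value + 1) for genes with a mean of at least 10. On simulated data for this comparison (200 of 13091 genes changed), the fit was tested before use. The alternatives were edgeR 4.0.16 and DESeq2 1.42.0 on recovered reads, other filters, scalings and pseudocounts, a replicate block, each library left out, and other definitions of a region outside genes. Figures and joins used Python with pandas. Named were the 10 strongest regions near and the 10 away from gene ends, 5 of each sign of difference, the 12 coding genes with the most signal past their end, called genes with regions, fixed genes, and microRNA genes within 1 kb. The regions, gene lists and tests were chosen with earlier results of these data known.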

Additional observations from a re-analysis of the deposited data

Results flagged for a closer look

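In 4 of 107 groups of 4 libraries of the named genes, 1 library lay far from the other 3, with a gap to them that made up most of the whole range. Chance gives about 1 in 20 such groups. All 4 were KO groups. Xrn2, the exonuclease that ends transcription, was at 10124.9 in KO 3 and at 7542.6 to 7974.4 in the others. Rbbp6, a cleavage factor subunit, was at 9704.0 in KO 3 against 6375.6 to 6906.3. Wdr33, the subunit that reads the polyadenylation signal, was at 3427.8 in KO 1 against 3569.2 to 3575.0. Ms4a1, the B cell antigen CD20, was at 13496.8 in KO 4 against 15418.0 to 15561.4.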

How the results depend on the processing

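The share of regions outside genes (9.43%) was 9.22% with regions of at least 20 nt, 11.1% with the upper 50% of the deposited score (which are the 407668 differential regions, since the median score is 0), 7.97% at least 1 kb from any gene and 12.4% outside same-strand genes only. In that order, their share of tag bases (11.1%) was 11.06%, 14.6%, 9.21% and 14.2%. Their share in a differential state (49.8%) was 52.8%, 100% (by construction), 50.6% and 50.3%. Their share within 10 kb past a same-strand end (25.3%) was 25.1%, 22.6%, 16.1% and 23.9%, and 14.7% with protein-coding genes only and 20.1% with 5 kb in place of 10 kb. In RNA-seq, the 9 genes past the threshold became 199 with DESeq2, and the 3 with regions past their end became 48. With each library left out in turn the counts ran from 8 to 17 (17 without KO 2, 14 without KO 4) and from 2 to 4. The replicate block gave 11 and 3. Libraries with the same number did not deviate together (correlations of -0.0943, -0.0647, -0.0502 and 0.00275), so the numbers were not taken to pair them. The other filters, scalings, pseudocounts, edgeR and the 5 kb limit kept both counts within 1.5 times. State 2 was rare at low depth: below 5 tags 0.686% of regions outside genes were in state 2, while 33.7% were in state 0. The part of depth in this was not tested. Pooling leaves every CLIP difference without an error.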
